A study of Mus musculus with 18 samples.

Results

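The insulin-like growth factor (IGF) genes measured here were the 2 ligands Igf1 and Igf2, the 2 receptors Igf1r and Igf2r, and 6 binding proteins, Igfbp2 to Igfbp7. They were taken as the listed genes of this family with a probe set annotated to that gene alone. All 10 genes had such a probe set, 1 each, among 19938 genes of the array. The list was chosen by reference to earlier results, on the log2 levels of these same probe sets over all 6 times and 18 arrays, so the values of the 10 genes are described below and not tested.

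The cells were wild type mouse embryonic fibroblasts, connective tissue cells cultured from C57BL/6 embryos of embryonic day 13 after the head and liver had been taken off. The labels say that they came from 2 mice, of matings that also gave Bmal1-/- embryos, which lack a core clock activator. Every culture had a 2 h exposure to 100 nM dexamethasone, a synthetic glucocorticoid that resets the circadian clocks of cultured cells, and the labels also call this step a serum shock. RNA followed at 22, 26, 30, 34, 40 and 46 h. Each time had 3 arrays, 1 per sample and 18 in all, which the labels call biological replicates. There was no untreated group, so each later time was set against an earlier one, and the series asked which genes followed the circadian cycle. The labels differ on the serum in the medium, and nothing further is said of the cultures behind the replicates.

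IGF1 and IGF2 are small secreted hormones related to insulin that drive growth and survival through the IGF1 receptor, a tyrosine kinase. The IGF2 receptor, which also carries lysosomal enzymes tagged with mannose 6-phosphate, takes up IGF2 for breakdown and does not signal as the kinase receptor does. The binding proteins hold the ligands outside the cell, extend their life and control their access to the receptor, and proteases that cut them set the ligands free. Fibroblasts are known to make IGFs and several of the binding proteins.

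The arrays of 1 time correlated with each other at 0.9943 to 0.998 over all genes, and array medians ran from an intensity of 196 to 210. Levels are given as log2(intensity + 16) after quantile normalization, a scale on which a step of 1 is a doubling of a bright gene and on which the change of a dim gene is understated. Precision is limited by the 3 arrays of each time. The fibroblast label was set against marker genes. Col1a1, a chain of type I collagen, averaged 13.14 at 46 h and 12.72 at 22 h, while Fap (5.94 and 5.93) and Thy1 (7.29 and 7.31), which also mark fibroblasts, lay under the median gene, at 8.07. The 11 fibroblast markers measured had mean levels of 5.97 to 13.31, with a median of 12.05. The 10 macrophage markers lay between 6.00 and 8.07 (median 7.17) and the 9 endothelial markers between 6.38 and 7.91 (median 6.72), where the lower quartile of all genes was 6.82. Some other lists had markers above the median gene. These were Sox9, Col2a1 and Col10a1 (cartilage and bone), Acta1 and Des (skeletal muscle), Nes, Tubb3 and Sox10 (neural) and Apoa1 (liver). The highest mean levels of these lists were 9.93 (cartilage and bone), 9.49 (skeletal muscle), 8.59 (neural) and 8.45 (liver). The medians of these lists were 7.72, 7.22, 7.63 and 7.07. The highest epithelial and adipocyte markers lay under the median gene. Whether cells of other types were present was not tested. In bulk RNA, fewer cells of a type and less RNA per cell cannot be told apart.

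The promoters of the family were read for short motifs of the factors that the treatment and the clock act through. The promoters shown are that of the gene with the largest difference over time, both that hold the E-box CACGTG, the letters bound by the clock activators, and that of the binding protein that was lower at the late times. Each runs over the 250 bases before a RefSeq transcript start, 5′ to 3′ on the strand of the gene (GRCm38.p6). Capitals mark every match, on either strand, to CACGTG, to the D-box core TTANNTAA, to the nuclear receptor half-site AGGTCA, to the glucocorticoid receptor half-site TGTTCT, to the forkhead motif GTAAACA or to the TATA box TATAAA.
Igf1, chr10:87860861-87861110, plus strand: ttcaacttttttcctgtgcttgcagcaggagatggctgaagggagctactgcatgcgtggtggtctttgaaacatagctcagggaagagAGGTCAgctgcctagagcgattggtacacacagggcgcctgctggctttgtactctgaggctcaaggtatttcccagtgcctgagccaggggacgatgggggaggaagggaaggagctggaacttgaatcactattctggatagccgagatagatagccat
Igf2r, chr17:12769707-12769956, minus strand: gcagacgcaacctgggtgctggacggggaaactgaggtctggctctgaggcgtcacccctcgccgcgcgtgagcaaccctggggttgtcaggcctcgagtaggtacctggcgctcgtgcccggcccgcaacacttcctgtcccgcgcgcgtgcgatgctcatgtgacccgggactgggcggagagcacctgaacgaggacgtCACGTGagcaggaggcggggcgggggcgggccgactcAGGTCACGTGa
Igfbp2, chr1:72824230-72824479, plus strand: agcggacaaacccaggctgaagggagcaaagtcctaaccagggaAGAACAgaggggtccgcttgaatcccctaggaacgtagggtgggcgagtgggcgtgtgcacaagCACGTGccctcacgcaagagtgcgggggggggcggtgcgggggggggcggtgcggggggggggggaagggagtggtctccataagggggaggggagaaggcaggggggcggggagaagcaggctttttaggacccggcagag
Igfbp6, chr15:102143936-102144185, plus strand: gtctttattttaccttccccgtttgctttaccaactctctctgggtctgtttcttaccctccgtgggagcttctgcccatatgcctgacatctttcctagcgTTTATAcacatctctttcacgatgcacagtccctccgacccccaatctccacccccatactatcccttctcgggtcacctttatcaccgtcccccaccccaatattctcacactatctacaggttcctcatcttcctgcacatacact

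The Igf1 promoter held an AGGTCA 161 bases before the start and no other capitalised match. The Igf2r promoter held CACGTG at 48 and at 7 bases before the start, the second of them overlapping an AGGTCA at 11 bases. In Igfbp2 a CACGTG lay 142 bases before the start and a TGTTCT, read on the opposite strand, 206 bases before it. The RefSeq table gave 14 starts for the 10 genes, 4 of them for Igf2 and 2 for Igfbp2, and the array does not tell these starts apart. CACGTG was present at 2 of the 14 starts, against 6.02% of all 32851 promoters in the table. AGGTCA was found in the promoters of Igf1, Igf1r, Igf2r and at 1 start of Igf2 (14% of all promoters), and TGTTCT at that Igf2 start and in Igfbp2 (16.1%). TATAAA lay 28 bases before the start of Igfbp4 and, on the opposite strand, 148 bases before that of Igfbp6 (12.4%). No match to TTANNTAA (5.43%) or to GTAAACA (3.17%) was seen in these windows. GGGCGG, the GC box, was also searched on both strands and is not capitalised; it was found at starts of Igf2, Igf1r, Igf2r, Igfbp2 and Igfbp7 (32.7%). A match is only a run of letters in this window.

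Both ligands were higher at every later time than at 22 h. Igf1, the ligand that growth hormone induces in the liver and that many connective tissues make for themselves (chr10:87858265-87937047), had levels of 9.54, 10.01 and 9.70 at 22 h, and the arrays of 26 h gave 10.31, 10.55 and 10.37. It then had 10.58, 10.48 and 10.51 at 30 h, followed by 10.68, 10.63 and 10.83 at 34 h. The arrays of 40 h gave 11.07, 10.96 and 11.02, those of 46 h 11.36, 11.40 and 11.44. The 3 arrays of each time lay wholly above those of the time before, except between 26 and 30 h, where they overlapped. As deposited, before any normalization here, the 3 intensities were 2612, 2664 and 2791 at 46 h, against 755.6, 1021 and 840.1 at 22 h.

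The Igf1 mean was 11.40 ± 0.04 at 46 h and 9.75 ± 0.24 at 22 h (SD, n = 3 each), a difference of 1.65 ± 0.09 log2 (SE of the fit over 18 arrays), or 3.13-fold. Of that difference, 40.1% was already present by 26 h, 47% by 30 h, 58.4% by 34 h and 76.7% by 40 h. The largest step was thus the first, of 0.66 ± 0.09 between 26 and 22 h. The steps of the 2 last and longer intervals were 0.30 ± 0.09 between 40 and 34 h and 0.38 ± 0.09 between 46 and 40 h. Their intervals of 1 SE either side overlapped. The 3 arrays of 22 h were the most spread of any time, with replicate 2 above the others. Without that array the difference between 46 and 22 h was 1.78.

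Igf2, the ligand of embryonic growth, which is expressed from the paternal copy in most mouse tissues (chr7:142650768-142666816), was the brighter of the 2 probe sets, although levels of different probe sets are not comparable as amounts. The 22 h arrays gave 12.26, 12.29 and 12.28, the 26 h arrays 12.41, 12.50 and 12.44, and the 30 h arrays 12.43, 12.50 and 12.50. The 34 h arrays gave 12.61, 12.59 and 12.65, the 40 h arrays 12.75, 12.61 and 12.61, and the 46 h arrays 12.78, 12.84 and 12.79. The order of the 6 means was that of the times, but 26 and 30 h overlapped, and so did 34 and 40 h. The difference between 46 h (12.80 ± 0.03) and 22 h (12.28 ± 0.01) was 0.52 ± 0.05, or 1.44-fold. By 26 h 32.6% of it was present, by 34 h 64.6% and by 40 h 72.4%.

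Over the 18 arrays the 2 ligands correlated at 0.96, and at 0.42 once each time's mean was taken out. These points share their arrays, and 33.8% of the variance within times over all genes lay along 1 component, so a correlation within times is not that of 2 genes alone. The residuals of Igf1 correlated with that component at 0.42 and those of Igf2 at 0.25. At 22 h the array highest for Igf1, replicate 2, was the lowest for Top2a, a DNA topoisomerase of dividing cells, which had 11.84, 11.51 and 11.77 in replicates 1, 2 and 3.

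**Figure D1:**
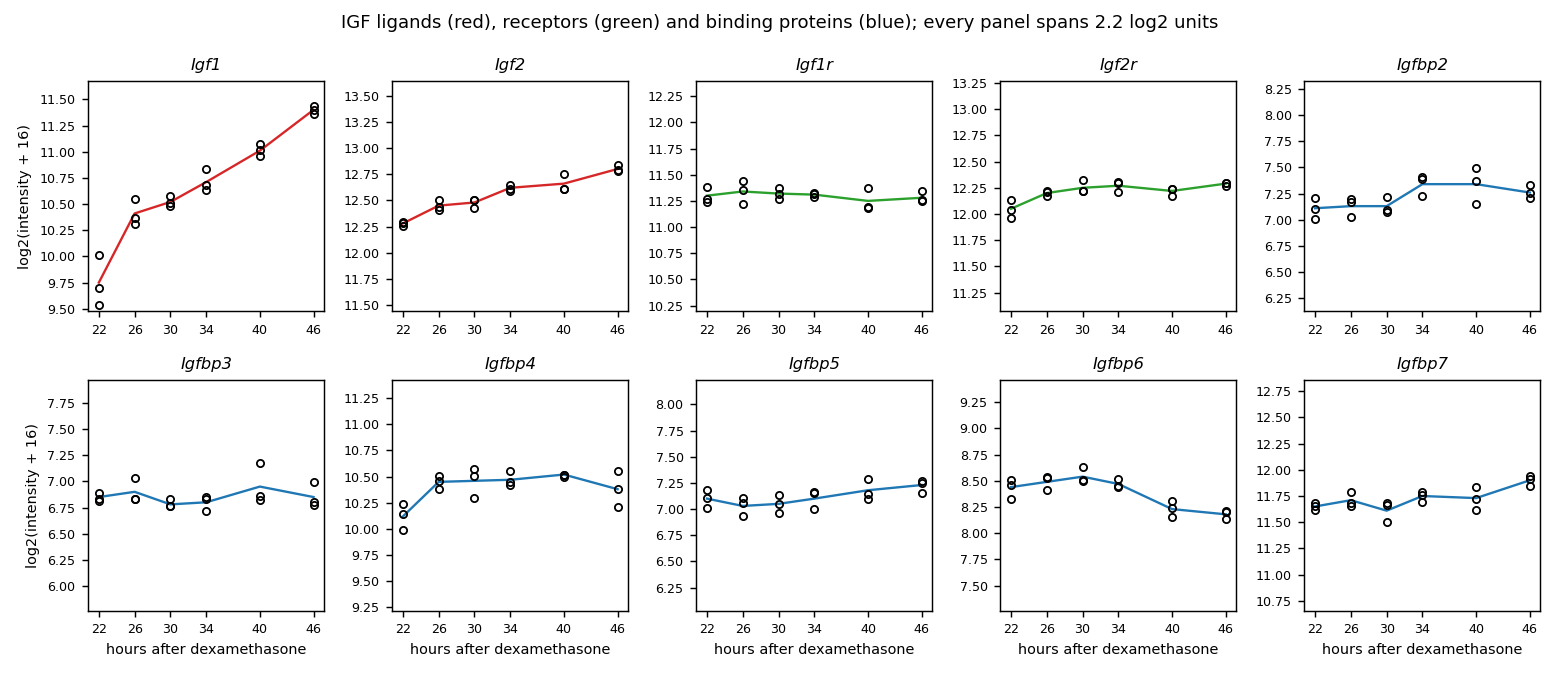
Levels of the 10 IGF genes, log2(intensity + 16), by hours after dexamethasone; circles are single arrays, 3 at each time, and lines join the time means. All panels cover the same log2 distance. The climb of Igf1 through all 6 times and the smaller one of Igf2 can be read directly. So can the largest step of Igf2r and of Igfbp4, between 22 and 26 h, and the lower Igfbp6 at 40 and 46 h.

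A microRNA gene lies inside Igf2 and has a probe set of its own, so that the host gene and the gene within it can be set side by side. Its mature products, as listed by RefSeq (minus strand, GRCm38.p6), are printed with the seed, bases 2 to 8, in capitals.
mmu-miR-483-3p, chr7:142654932-142654952: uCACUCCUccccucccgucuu
mmu-miR-483-5p, chr7:142654968-142654989: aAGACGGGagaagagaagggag

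The Mir483 probe set gave 7.88, 8.05 and 8.03 at 46 h, against 7.86, 7.81 and 7.87 at 22 h. The difference of 0.14 ± 0.08 did not pass the test (limma, adjusted p = 0.22), where that of Igf2 on the same arrays was 0.52 ± 0.05. The Mir483 probe set was dim, with a mean of 7.87 over all arrays, so that a change of its RNA may be understated beside that of Igf2. The array reads RNA copied with random primers from a total RNA extract, and what share of this signal came from mature miR-483 was not tested. Mir483 and Igf1os, below, were outside the rule for named genes and were picked because they overlap a ligand gene, after their values were seen.

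The receptors differed from each other. Igf1r, the kinase receptor (chr7:67952257-68233668), had 11.25, 11.34 and 11.26 at 46 h, against 11.24, 11.38 and 11.27 at 22 h. Over all 18 arrays it stayed between 11.18 and 11.44, every pair of neighbours in the order of its means overlapped, and the difference between 46 and 22 h was -0.01 ± 0.06. The interval of 1 SE either side thus held 0, and the means of the 6 times spanned 0.09.

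Igf2r, the clearance receptor, which is expressed from the maternal copy in most mouse tissues (chr17:12682406-12769706), had 11.96, 12.13 and 12.04 at 22 h. The 26 h arrays gave 12.17, 12.22 and 12.21, the 30 h arrays 12.22, 12.22 and 12.32, and the 34 h arrays 12.31, 12.21 and 12.30. The 40 h arrays gave 12.24, 12.17 and 12.24 and the 46 h arrays 12.30, 12.27 and 12.30. The 3 arrays of 22 h were the lowest of all 18, and no later time was set apart from its neighbour in the order of means. The difference between 46 and 22 h was 0.24 ± 0.05, or 1.18-fold, and 63.2% of it was present by 26 h and 93.9% by 34 h. Igf2r thus reached most of its difference in the first interval, where Igf1 and Igf2 had 40.1% and 32.6% of theirs; these shares carry the error of both differences.

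The binding proteins went different ways. Igfbp4, which holds IGFs away from the receptor and is a substrate of the protease PAPP-A (chr11:99040005-99052655), had 9.99, 10.24 and 10.14 at 22 h, and the 26 h arrays gave 10.46, 10.38 and 10.51. The 30 h arrays gave 10.51, 10.57 and 10.30, the 34 h arrays 10.45, 10.55 and 10.42, and the 40 h arrays 10.52, 10.50 and 10.52. At 46 h it had 10.38, 10.55 and 10.21, the lowest of which lay within the range of 22 h. The means were 0.33 ± 0.08 higher at 26 h than at 22 h and 0.40 higher at 40 h than at 22 h. Between 46 and 22 h the difference was 0.26 ± 0.08 with overlapping arrays, and it ran from 0.18 to 0.34 as single arrays were left out, the first without 46 h replicate 2 and the second without 46 h replicate 3.

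Igfbp7, a low-affinity IGF binder of the matrix (chr5:77349240-77408045), had 11.85, 11.91 and 11.94 at 46 h, against 11.68, 11.62 and 11.65 at 22 h. Arrays of the 4 times between lay from 11.50 to 11.84. All 3 arrays of 46 h were thus above every other array. The difference between 46 and 22 h was 0.25 ± 0.06, or 1.19-fold, and most of it lay in the last interval, where 46 h was 0.17 ± 0.06 above 40 h.

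Igfbp6, which binds IGF2 in preference to IGF1 (chr15:102144186-102149512), was the 1 gene of the 10 that was lower at 46 h with no overlap. The 22 h arrays gave 8.33, 8.46 and 8.51, the 26 h arrays 8.53, 8.41 and 8.54, the 30 h arrays 8.63, 8.51 and 8.50, and the 34 h arrays 8.44, 8.52 and 8.45. The arrays of 40 h gave 8.31, 8.15 and 8.24, and those of 46 h 8.20, 8.21 and 8.14. The first 4 times overlapped with their neighbours, and all 6 late arrays lay under the lowest of the first 12. The difference was -0.23 ± 0.06 between 40 and 34 h, the largest single step of the gene, and -0.25 ± 0.06 between 46 and 22 h.

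The probe sets of Igfbp2, Igfbp3 and Igfbp5 were dim, with means over all arrays of 7.22, 6.86 and 7.11, between the lower quartile and the median of all genes, so that a change of their RNA may be understated. Igfbp2, a binding protein with an integrin-binding motif (chr1:72824480-72852474), had 7.21, 7.33 and 7.26 at 46 h, against 7.10, 7.21 and 7.01 at 22 h. It was highest at 34 h, with 7.23, 7.39 and 7.41, and at 40 h, with 7.37, 7.15 and 7.49. The difference was 0.16 ± 0.08 between 46 and 22 h and 0.21 ± 0.08 between 34 and 30 h.

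Igfbp5, a heparin-binding protein of matrix and bone (chr1:72858065-72874865), had 7.15, 7.27 and 7.25 at 46 h, against 7.11, 7.18 and 7.01 at 22 h. The difference was 0.13 ± 0.07, and it was 0.22 with values as deposited, 0.08 without 22 h replicate 3 and 0.17 without 22 h replicate 2. Every pair of neighbours in its order of means overlapped. Igfbp2 and Igfbp5 lie next to each other, 5590 bp apart and in opposite orientations, and their levels correlated at 0.59 over the 18 arrays and at 0.54 within times. Igfbp3, the main carrier of IGFs in blood (chr11:7206086-7215498), had 6.77, 6.99 and 6.80 at 46 h, against 6.83, 6.81 and 6.89 at 22 h. Its difference was 0.01 ± 0.08, and its highest array, 7.18, was replicate 3 of 40 h, where the other arrays had 6.86 and 6.82.

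**Figure D2:**
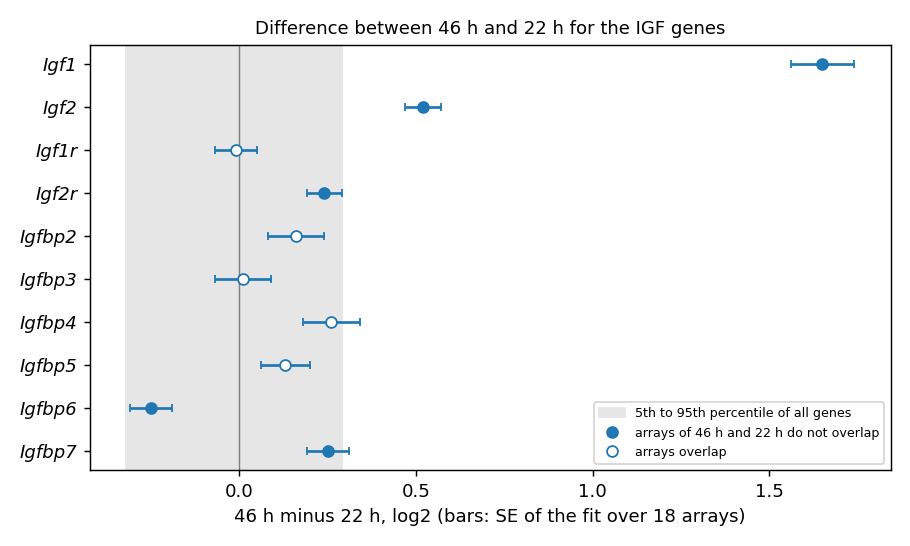
Difference in level between 46 h and 22 h, 46 h minus 22 h in log2, for each IGF gene; bars are 1 SE of the fit over 18 arrays, filled points have arrays that do not overlap between the times, and the grey band holds the middle of the differences of all genes, from -0.32 to 0.29. Igf1 (1.65) and Igf2 (0.52) lie right of the band, and the other 8 genes lie within it.

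Counted over the family, the arrays of 46 h and 22 h did not overlap for 5 of the 10 genes. They were higher at 46 h for Igf1, Igf2, Igf2r and Igfbp7, where 21.3% of all genes were, and lower for Igfbp6, where 15.3% of all genes were. The median difference over the 10 genes was 0.20, against 0.03 over all genes. Since the genes were chosen with these values known, the counts are given without a reading. Replicate 2 of 22 h decided 3 of the overlaps: without it, 7 genes lay higher and 1 lower with no overlap, where 32.7% and 22.9% of all genes did.

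The steps between neighbouring times were spread unevenly, and the later intervals are longer than the earlier ones. Between 26 and 22 h, 4 genes lay higher with no overlap (Igf1, Igf2, Igf2r and Igfbp4), against 10.5% of all genes, and 7.05% of all genes lay lower. Between 30 and 26 h no IGF gene was set apart in either direction, when 3.98% of all genes were higher and 2.67% lower. Between 34 and 30 h, Igf1, Igf2, Igfbp2 and Igfbp7 lay higher (9.4% of all genes, with 7.16% lower). Between 40 and 34 h, Igf1 lay higher (6.39%) and Igfbp6 lower (8.41%). Between 46 and 40 h, Igf1, Igf2, Igf2r and Igfbp7 lay higher (5.22%, with 7.07% of all genes lower), with means 0.38, 0.14, 0.07 and 0.17 apart.

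Across the first 12 h, from 22 to 34 h, 6 genes lay higher with no overlap, against 17.9% of all genes (9.93% lay lower): the ligands, Igf2r, Igfbp2, Igfbp4 and Igfbp7. Across the following 12 h, from 34 to 46 h, Igf1, Igf2 and Igfbp7 lay higher (9.82%) and Igfbp6 lower (12.9%). Igf2r (0.23 ± 0.05 in the first interval and 0.01 ± 0.05 in the second), Igfbp2 (0.23 ± 0.08 and -0.08 ± 0.08) and Igfbp4 (0.35 ± 0.08 and -0.09 ± 0.08) had their difference in the first interval. Igfbp6 had its own in the second, at -0.28 ± 0.06 after 0.03 ± 0.06. Igf1 was higher across both, by 0.96 ± 0.09 and 0.69 ± 0.09. These intervals share the arrays of 34 h.

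On a fitted cosine with a period of 24 h, 22 and 46 h fall at the same point of the cycle, so the difference of 1.65 in Igf1 between them lies outside such a curve. The amplitude, the height of the fitted peak above the mean in log2, was 0.30 ± 0.17 (SE) for Igf1 and 0.11 ± 0.06 for Igf2. Igfbp6 had 0.17 ± 0.04 with a fitted peak at 29.7 h, Igfbp2 0.13 ± 0.04 with a peak at 38.2 h, and Igfbp4 0.11 ± 0.04 with a peak at 34.4 h. The other 5 genes lay between 0.04 and 0.08. The median amplitude was 0.10 over the 10 genes and 0.06 over all genes, of which 0.828% passed the cosine test. Times cover 1 cycle, so a rhythm could not be seen to repeat.

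The genes with courses most like each IGF gene were found by Pearson correlation of levels over the 18 arrays. For Igf1 they were Thbs2, which encodes thrombospondin 2, Mylk, a myosin light chain kinase, and Postn, which encodes periostin, each at 0.99, and at 0.92, 0.90 and 0.85 within times. These 3 genes differed between 46 and 22 h by 1.48, 1.35 and 1.65. For Igf2 they were Bmp3, Mylk and Postn, each at 0.97, and within times at 0.60, 0.61 and 0.44. Igf2r was closest to Npc1, a lysosomal cholesterol transporter, and to Unc5c and Cped1, each at 0.94.

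For the binding proteins with a bright probe set, the closest were Arfgap3 (0.93), Thbs3 and Slc27a1 (0.91 each) for Igfbp4, and Ctf1 (0.85), Ccdc170 (0.83) and Tinagl1 (0.82) for Igfbp7. Igfbp6 was closest to Qars, Fads1 and Lpcat3, each at 0.93, which differed between 46 and 22 h by -0.24, -0.20 and -0.16. Igf1r was closest to Farp1 (0.93), Upf1 and Tns2 (0.91 each), and there the correlation within times was as high, at 0.93 to 0.95. The residuals of Igf1r correlated with the first component within times at 0.73, as did those of Igfbp4 at 0.72, Igfbp6 at 0.68 and Igfbp2 at 0.64. For the dim genes the closest were Nectin4 for Igfbp2 (0.90, and 0.78 within times), Crygn for Igfbp5 (0.90 and 0.82) and Spata16 for Igfbp3 (0.79 and 0.77). Ppl and Slc16a8 followed for Igfbp2, Abcg1 and Omp for Igfbp5, and Tuba3a and Prss52 for Igfbp3. Likeness was ranked over the same arrays on which the levels were described.

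Neighbours in the genome were read between 46 and 22 h, where 21.2% of all genes were called. On each side the nearest gene in the RefSeq table with a probe set of 1 symbol was taken. Genes without one were passed over, so a gene named beside a member need not be the adjacent one. Some lie far off. 1700113H08Rik ends at base 87230599 and Igf1 starts at 87858265. Mrpl23 ends at 142540747 and Igf2 starts at 142650768. Igfbp3 ends at 7215498 and Tns3 starts at 8431652. Not called were 1700113H08Rik beside Igf1 (0.18 ± 0.06, limma, adjusted p = 0.051) and Rpl37a beside Igfbp2 (-0.02 ± 0.05). The same held for Tnp1 beside Igfbp5 (-0.02 ± 0.08) and Pea15b beside Igfbp7 (0.02 ± 0.06). On either side of Igfbp6, Spryd3 (0.04 ± 0.08) and Csad (0.09 ± 0.06) were not called. Around Igf1, the overlapping long noncoding gene Igf1os (0.14 ± 0.10, at a dim mean level of 5.91) did not pass the test (limma, adjusted p = 0.327). The pseudogene Tyms-ps fell by 0.50 on the log2 scale (limma, adjusted p = 0.000523). Around Igf2, neither Mrpl23 (-0.20 ± 0.08, adjusted p = 0.0831) nor Ins2, a mouse insulin gene (0.13 ± 0.07, adjusted p = 0.225), was called by limma. Next to Igf1r, Synm rose by 0.16 (limma, adjusted p = 0.0478) and Pgpep1l by 0.29 (adjusted p = 0.0317). Igfbp4 lies beside Top2a, which fell by 1.22 (limma, adjusted p = 2.17e-07), while Tns4 on its other side was not called (0.14 ± 0.08). Tns3, on the far side of Igfbp3 from Igfbp1, rose by 0.41 (limma, adjusted p = 0.000202). Igfbp7 overlaps the end of Polr2b, a subunit of RNA polymerase II, which fell by 0.19 (limma, adjusted p = 0.00849), and Noa1 beyond it fell by 0.33 (adjusted p = 0.00056).

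Airn, a noncoding RNA that overlaps Igf2r and is known in mice for silencing the paternal Igf2r copy, rose over the same contrast. It had 11.90, 11.98 and 11.92 at 46 h, against 11.45, 11.69 and 11.49 at 22 h, with no overlap. The difference was 0.40 ± 0.08 (limma, adjusted p = 0.00269), beside 0.24 ± 0.05 for Igf2r. Slc22a2 (0.12 ± 0.06) and Mas1 (0.15 ± 0.08), on either side of Igf2r, were not called. Whether RNA of either gene reaches the probes of the other was not tested.

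The other genes of the pathway were read from 9 lists, 136 of whose 146 genes were measured. Between 46 and 22 h, 36 of them rose (11.5% of all genes did), 8 fell (9.73%) and 92 did not pass the test, so that 32.4% were called, against 21.2% of all genes. Their median difference was 0.07, against 0.03 over all genes. The F test over the 6 times called 35 of them (25.7%, against 19.8% of all genes). With genes dimmer than the median gene left out, 39.1% of the list genes kept were called between 46 and 22 h. Of all genes kept, 35.7% were. By the F test the shares were then 35.5% and 31.9%. With arrays weighted by their quality, 72 of the 136 (52.9%, against 44.1% of all genes) were called between 46 and 22 h. By the F test 85 were (62.5%, against 54%). The 24 h cosine called 1, Ccn1 (0.735%, against 0.828%). Ccn1, a matrix-associated signalling protein with an IGF-binding domain, had a cosine amplitude of 0.26 with a peak at 42.1 h (limma, adjusted p = 0.0486). That call was lost without any 1 of 14 of the 18 arrays, and under 5 of 10 alternatives that kept all arrays, over which its adjusted p by limma ran from 0.0394 to 0.0813.

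Among the genes that set IGFs free or hold them, 2 of 10 rose and 8 were not called. Pappa encodes PAPP-A, the protease that cuts IGFBP4. It had 8.36, 8.28 and 8.16 at 46 h, against 7.36, 7.61 and 7.37 at 22 h, and rose by 0.82 ± 0.09, or 1.76-fold (limma, adjusted p = 3.37e-06). Htra1, a secreted serine protease that cuts IGFBP5 and other matrix proteins, had 11.26, 11.17 and 11.26 at 46 h, against 10.45, 10.54 and 10.55 at 22 h. It rose by 0.72 ± 0.08, or 1.64-fold (limma, adjusted p = 2.78e-06). The arrays of the 2 times did not overlap for either gene.

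The inhibitors of PAPP-A, Stc1 (0.02 ± 0.08) and Stc2 (-0.12 ± 0.06), and its relative Pappa2 (0.03 ± 0.08) were not called. Nor were Igfals, which encodes the acid-labile subunit of the circulating IGF complex (0.20 ± 0.07, limma, adjusted p = 0.0704), Igfbp1 (0.01 ± 0.08) and Igfbpl1 (-0.01 ± 0.09). The RNA-binding proteins Igf2bp1 (-0.15 ± 0.08) and Igf2bp3 (-0.06 ± 0.08), which bind Igf2 transcripts, were not called either. By limma Igfals (0.26) and Igf2bp1 (-0.20) were called with values as deposited, Stc2 (-0.11) and Igf2bp1 (-0.17) with array weights, and Igfals also without 22 h replicate 3 or without 40 h replicate 2. Stc1, Pappa2 and Igfbp1 lie near 0 and changed sign as the scaling or single arrays changed. Dim probe sets limit these readings. Mean levels over all arrays were 6.46 for Stc1, 7.44 for Stc2, 7.13 for Pappa2, 7.02 for Igfbp1 and 6.89 for Igfbpl1. All lay under the median gene, at 8.07, so that a change of their RNA may be understated.

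**Figure D3:**
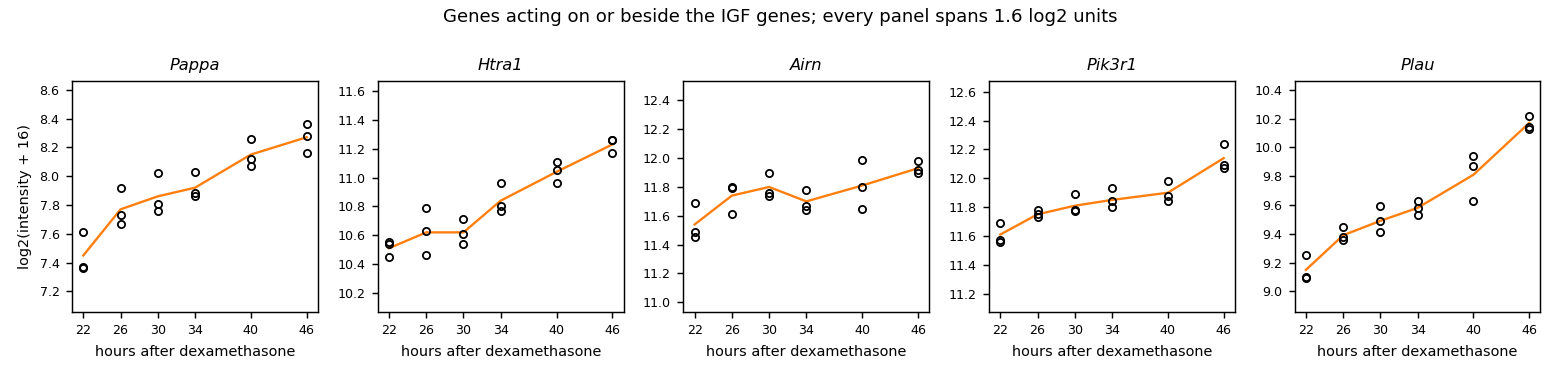
Levels of 5 genes that act on or beside the IGF genes, log2(intensity + 16), by hours after dexamethasone; circles are single arrays, 3 at each time, lines join the time means, and all panels cover the same log2 distance. Pappa, Htra1, Pik3r1 and Plau have higher means at every later time than at 22 h, and the arrays of Airn at 26, 34 and 40 h overlap those of 22 h.

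Of 11 proteins of other families with an IGF-binding domain, 3 rose and 1 fell. Esm1, which encodes the proteoglycan endocan, had 7.73, 7.20 and 7.62 at 46 h, against 9.03, 8.24 and 8.73 at 22 h, and fell by 1.15 ± 0.17 on the log2 scale (limma, adjusted p = 8.83e-05). The difference was -1.36 without 22 h replicate 2 and -0.96 without 22 h replicate 1. Ccn1 rose by 0.39 ± 0.08 (limma, adjusted p = 0.00123), Htra4 by 0.22 ± 0.06 (adjusted p = 0.0146) and Ccn3 by 0.32 ± 0.10 (adjusted p = 0.0317). The calls of the last 2 were lost as single arrays of 22 or 46 h were left out: that of Htra4 with 22 h replicate 3, 46 h replicate 2 or 46 h replicate 3, and that of Ccn3 with any of these 6 arrays but 46 h replicate 2.

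In receptor signalling, 6 of 29 genes rose, 3 fell and 20 were not called. The largest rise was that of Pik3r1, the p85 alpha regulatory subunit of phosphoinositide 3-kinase, with 12.09, 12.07 and 12.24 at 46 h, against 11.57, 11.69 and 11.56 at 22 h. It rose by 0.53 ± 0.06 (limma, adjusted p = 6.01e-06), and Pik3r3, another regulatory subunit, by 0.36 ± 0.06 (adjusted p = 0.00019). The docking proteins Gab2 and Gab1 rose by 0.25 ± 0.05 and 0.24 ± 0.06 (limma, adjusted p = 0.00156 and 0.00687). The insulin receptor gene Insr had 10.94, 10.85 and 11.00 at 46 h, against 10.82, 10.69 and 10.83 at 22 h (0.15 ± 0.06, limma, adjusted p = 0.113). The substrates Irs1 (0.15 ± 0.09, limma, adjusted p = 0.271) and Irs2 (-0.11 ± 0.05, adjusted p = 0.153) were not called. With array weights all 3 were called by limma (0.13, 0.22 and -0.10), as was Irs2 with values as deposited (-0.15) and Irs1 without 22 h replicate 2 (0.27).

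In the TOR branch, 2 of 16 genes rose: Deptor, which encodes an inhibitor of the kinase mTOR (0.36 ± 0.05, limma, adjusted p = 0.000125), and Rps6kb2, which encodes an S6 kinase (0.33 ± 0.07, adjusted p = 0.00162). IGF signalling is known to restrain the FOXO factors, which induce some of their target genes and repress others, such as the cyclin gene Ccnd1. Of 21 FOXO factors and target genes, 7 rose and 2 fell, with a median of 0.05. Gadd45a, a growth arrest gene, rose by 0.65 ± 0.05 (limma, adjusted p = 1.73e-07), Sesn1 by 0.40 ± 0.08 (adjusted p = 0.00118) and Txnip by 0.37 ± 0.06 (adjusted p = 0.000316). Bnip3, a mitochondrial gene also induced by low oxygen, fell by 0.50 ± 0.09 (limma, adjusted p = 0.000605). Ccnd1 fell by 0.23 and the cyclin gene Ccnd2, which FOXO factors also repress, rose by 0.20 (limma, adjusted p = 0.00962 and 0.0221). The call of Ccnd1 was lost without 22 h replicate 1 or with only the arrays of 22 and 46 h, and that of Ccnd2 without 22 h replicate 2 or 3 or 46 h replicate 1.

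Of 10 genes of the growth hormone axis, 3 rose, all near the threshold. Ghr, the growth hormone receptor, had 11.61, 11.42 and 11.59 at 46 h, against 11.35, 11.26 and 11.34 at 22 h, and rose by 0.23 ± 0.08 (limma, adjusted p = 0.0421). Cish, a feedback inhibitor induced by STAT5, rose by 0.21 ± 0.07 (limma, adjusted p = 0.0404) and Stat5b by 0.14 ± 0.05 (adjusted p = 0.0486). The call of Ghr was lost without any 1 of 22 h replicates 1, 2 and 3, 34 h replicate 3, and 46 h replicates 1 and 3, and that of Cish without 22 h replicate 1 or 3 or 46 h replicate 1 or 2. The call of Stat5b was lost without any of the 6 arrays of 22 and 46 h and without 9 of the other 12. Nr3c1, the receptor that dexamethasone binds, was not called (0.04 ± 0.07).

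Among imprinted growth genes 6 of 14 rose and the other 8 were not called. Besides Airn these included the paternally expressed zinc finger genes Plagl1 (0.52 ± 0.08, limma, adjusted p = 0.000221) and Peg3 (0.42 ± 0.06, adjusted p = 0.000127), and Cdkn1c, a maternally expressed inhibitor of cell division (0.27 ± 0.06, adjusted p = 0.00389). Grb10, an adaptor that restrains the insulin and IGF1 receptors, was not called (0.02 ± 0.05), a difference within its SE.

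Of 13 genes that work with IGF2R or in the sorting of lysosomal enzymes, 4 rose and 1 fell. Plau, which encodes urokinase, had 10.14, 10.13 and 10.22 at 46 h, against 9.09, 9.25 and 9.10 at 22 h, a rise of 1.02 ± 0.07, or 2.03-fold (limma, adjusted p = 1.91e-08). Plaur, its receptor, which binds IGF2R, fell by 0.36 ± 0.07 (limma, adjusted p = 0.00221). Sort1, the sorting receptor sortilin, rose by 0.84 ± 0.09 (limma, adjusted p = 2.99e-06) and Ctsd, the lysosomal protease cathepsin D, by 0.26 ± 0.06 (adjusted p = 0.00323). Of 13 partners of the binding proteins at the cell surface, in the matrix or, for the nuclear receptor gene Rxra, inside the cell, 3 rose and 1 fell. Lrp1, an uptake receptor reported to bind IGFBP3, rose by 0.22 ± 0.05 (limma, adjusted p = 0.00594), Itgb1 by 0.21 ± 0.05 (adjusted p = 0.00884) and Rxra by 0.20 ± 0.06 (adjusted p = 0.024), and Cav1, the main protein of caveolae, fell by 0.41 ± 0.05 (adjusted p = 5.5e-06). The call of Itgb1 was lost without 46 h replicate 3, and that of Rxra without 22 h replicate 1 or 3 or 46 h replicate 1 or 2.

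**Figure D4:**
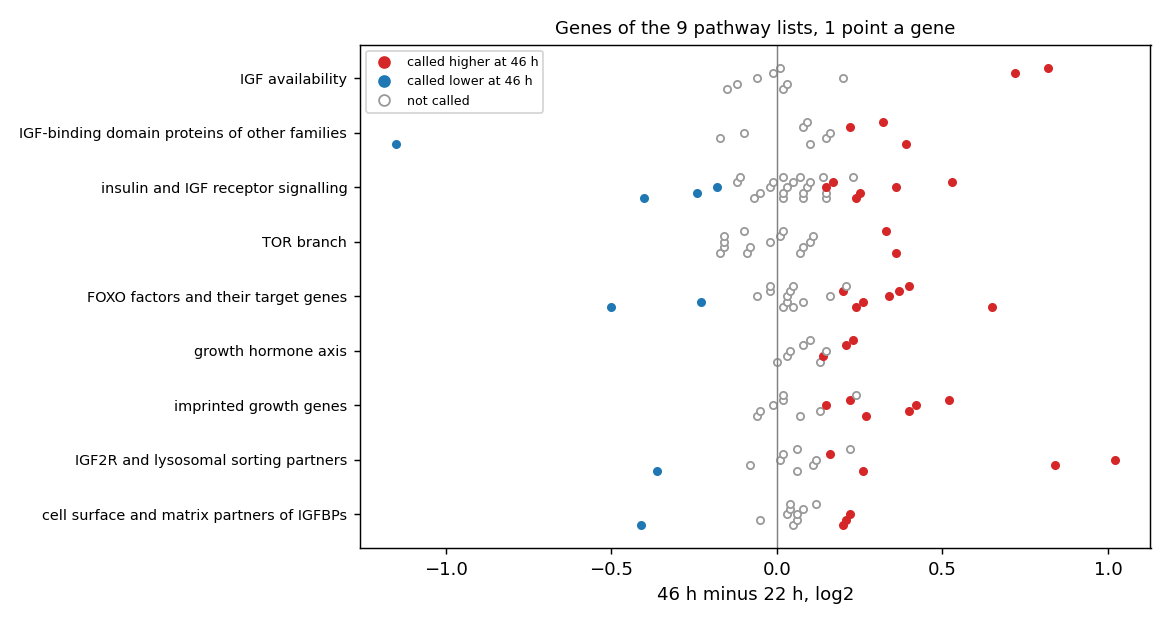
Difference between 46 h and 22 h, 46 h minus 22 h in log2, for each measured gene of the 9 pathway lists, 1 point a gene; red points rose and blue points fell by limma with an adjusted p under 0.05 over all genes, and open points were not called. Most points lie near 0, with Plau (1.02), Sort1 (0.84), Pappa (0.82) and Htra1 (0.72) at the right and Esm1 (-1.15) at the left.

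Genes of cell division moved with the same contrast. All 17 measured genes of that list fell, with a median of -1.55, among them the spindle genes Aspm (-1.91 ± 0.08), Prc1 (-1.72 ± 0.08) and Tpx2 (-1.54 ± 0.07) and the mitotic kinase gene Aurka (-1.47 ± 0.06, limma, adjusted p = 1.36e-10). The mean level of the list lay between 9.09 and 9.29 on the arrays of 46 h, against 10.62 to 10.85 at 22 h, with a step down between 22 and 26 h and another between 34 and 40 h. The part of cell division in the values above was not tested.

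Of 11 fibroblast markers, 6 rose and 1 fell, and the mean level of that list lay between 11.21 and 11.24 at 46 h, against 10.91 to 11.03 at 22 h. Lum, which encodes lumican, rose by 1.29 ± 0.11 (limma, adjusted p = 1.55e-07) and Col3a1 by 0.66 ± 0.08 (adjusted p = 1.03e-05), the largest rises of the list. S100a4 fell by 0.50 ± 0.12 (limma, adjusted p = 0.0059), and Vim (-0.07), Thy1 (-0.02), Dcn (0.02) and Fap (0.01) were not called. Among the markers of other cells, 1 of 10 macrophage genes rose and 1 fell, with a list mean of 7.02 to 7.06 at 46 h, against 6.98 to 7.07 at 22 h. The list means of the endothelial genes (6.83 to 6.95 at 46 h, against 6.82 to 6.88 at 22 h, 1 of 9 rose) and of the liver genes (7.19 to 7.22, against 7.08 to 7.25) overlapped between the times too. Skeletal muscle genes (2 of 8 rose, 7.49 to 7.52 at 46 h against 7.34 to 7.41 at 22 h) and cartilage and bone genes (2 of 6 rose and 1 fell, 8.10 to 8.20 against 7.91 to 7.95) lay higher at 46 h. So did the adipocyte genes (6.96 to 6.98 against 6.85 to 6.94), a dim list with a median level of 6.63, of which 0 of 7 were called. The epithelial genes (1 of 8 rose and 2 fell, 7.25 to 7.34 against 7.39 to 7.45) lay lower and the neural genes (1 of 7 rose and 1 fell, 7.72 to 7.83 against 7.71 to 7.76) overlapped. Their part in the IGF values was not tested.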

How the data were processed

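Per the labels' protocols, each sample's RNA was labelled with a whole-transcript kit for 1 Affymetrix array. The deposited values are linear intensities for each probe set. Expression Console 1.1 and PLIER 2.0 are named in the submitters' processing notes, with their order and settings not given in the sources used here. Of 35556 probe sets, 21789 had 1 gene symbol, 1621 several and 12146 none here; 21698 of the single ones matched RefSeq (GRCm38.p6) by gene identifier. For each gene the probe set with the highest mean was kept, giving 19938 genes.

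Intensities were taken as log2(value + 16) and quantile normalized, because array quartiles differed by up to 0.154. In R 4.3.3 with limma 3.58.1, group means over 6 times were fitted to all 18 arrays by lmFit and eBayes, giving an F test, 46 h minus 22 h, and, in a second fit, a 24 h cosine. P-values were adjusted over all genes by Benjamini-Hochberg, with a threshold of 0.05. They measure the spread between samples that the labels call biological replicates, which may be technical. "Called" means past that threshold, and "no overlap" means that all arrays of 1 time lie above all of the other.

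The members and the gene lists were chosen with earlier results of these data known. Genes named are the members, the 3 genes most correlated with each, genome neighbours, a fixed set of growth factor genes, and up to 4 called genes of each list with the smallest p. Mir483, Igf1os, Nr3c1, Grb10, Ccnd1, Ccnd2 and the single markers were picked after their values were seen. List genes without such a probe set are not reported here. Same-numbered replicates of different times did not deviate together (median correlation -0.10 over 45 pairs, 15 of them over 0.1), so the numbers were not taken to pair samples. The fits were tested on simulated data with errors drawn independently for each gene and array, so variation that genes share was not covered. Alternatives covered normalization, the constant, leaving out dim genes, testing every probe set, the replicate number, array weights, the variance trend, the arrays fitted, a linear term and each array left out. The number of value columns left unused was 0.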

Additional observations from a re-analysis of the deposited data

How the results depend on the processing

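The differences of the 10 IGF genes between 46 and 22 h moved by less than the spread between replicates in 69 of 70 pairs of a gene and an alternative that kept all arrays. The exception was Igfbp5, at 0.22 with values as deposited. Testing every probe set and the replicate block could not move these differences, so their pairs were unmoved by design. As single arrays were left out, Igf1 ran from 1.54 to 1.78, and the number of IGF genes whose arrays did not overlap, 5, ran from 5 to 8 (7 higher and 1 lower without 22 h replicate 2, where 32.7% and 22.9% of all genes were). It was 7 with values as deposited, 6 higher and 1 lower, where 29.3% and 15.2% of all genes were. The median difference over all genes was 0.03, and 0.06 as deposited. Of the list genes, 44 were called between 46 and 22 h. That count was 72 with array weights (56 higher and 16 lower, where 44.1% of all genes were called). It was 34 with only the arrays of 22 and 46 h (16.8% of all genes) and 40 with the replicate block (19.2%). With dim genes left out it was 43, where 35.7% of the genes kept were called. As arrays were left out it ran from 30 to 46, where the share of all genes ran from 14% to 23.8%. The F test called 35, and 85 with array weights (54% of all genes), 51 with values as deposited (33.1%) and 29 with the replicate block (16.2%). With dim genes left out it called 39 (31.9% of the genes kept). It called 24 to 42 as arrays were left out, where the share of all genes ran from 13.2% to 23.5%. The cosine called 1 list gene, where 0.828% of all genes were called. It called 6 with values as deposited (2.71% of all genes) and 12 with array weights (5.72%). It called 2 each with a constant of 64 (0.933%), with dim genes left out (1.12%) and with a variance trend (0.858%). It called 0 each with a constant of 1 (0.732%), with every probe set (0.787%), with the replicate block (0.16%) and with a linear term (0.171%). As arrays were left out it called 0 to 3, where the share of all genes ran from 0.14% to 1.54%. Some uncalled differences near 0 changed sign. Under cyclic loess Igfbp1 was -0.01 and Stc1 0; with array weights Igfbp1 was -0.02 and Pappa2 -0.13. As arrays were left out, Igfbp1 ran from -0.02 to 0.05, Pappa2 from -0.08 to 0.14 and Stc1 from -0.04 to 0.06. The cause was not tested. For the fixed set and the called list genes of smallest p, 13 calls were lost and 8 gained over all settings apart from single arrays left out. Those settings take in the fit of only the arrays of 22 and 46 h, and 377 results kept direction and call. The lost calls were those of Ghr, Ccn3, Cish, Stat5b and Rxra, that of Rxra only in the fit of those arrays. Ccnd1, outside this count, also lost its call there (limma, adjusted p = 0.0636). The gained calls were those of Igfals, Irs2 and Igf2bp1 with values as deposited, and of Insr, Stc2, Irs1, Irs2 and Igf2bp1 with array weights. The replicate block ended the calls of Ghr, Cish and Stat5b and changed no other call counted here. Signal over background is not given for these arrays, so dim probe sets such as those of Igfbp2, Igfbp3 and Igfbp5 limit what a small difference can show.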
